A study of Mus musculus with 18 samples.

Results

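Cxcl12 and 9 other genes through which bone marrow stromal cells support blood stem cells were followed in cultured mesenchymal stem cells (MSCs) from young and old mice. The genes were chosen by name, with earlier results of these data known. They are the secreted or membrane-bound ligands Cxcl12, Kitl, Angpt1 and Il7, the adhesion molecule Vcam1, the receptors Ackr3 and Lepr, and the transcription factors Foxc1, Ebf1 and Ebf3. All 10 were found among the 27179 genes measured. All 10 also averaged 10 or more normalized counts over the 18 libraries, the minimum for testing, although Ackr3 reached it through the young libraries alone.

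Cultures of 3 kinds were compared, with 6 libraries each. Young MSCs came from male C57BL6 mice of 6 weeks, and old MSCs from male C57BL6 mice of 18 to 24 months. Rejuvenated old MSCs were old MSCs kept for 7 days in the same well as young MSCs, separated from them by a membrane with pores of 0.4 µm that stops cells and passes what they secrete. Replicates held 100000 cells, and the cells were expanded from flushed marrow by adherence and used at passages 2 to 5. The labels call the replicates biological, but nothing read here ties a replicate to a mouse, so p-values measure the spread between these cultures. Old MSCs in co-culture with other old MSCs were not analysed here. The presence of a second cell layer and the age of its donors therefore cannot be told apart. A normalized count is the number of reads on a gene divided by 1 size factor per library.

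In marrow, the cells that make most CXCL12 are the CXCL12-abundant reticular (CAR) cells, stromal cells that largely overlap with those carrying the leptin receptor. CXCL12 retains blood stem cells and B cell progenitors through its receptor CXCR4, KIT ligand maintains them through the receptor KIT, and VCAM1 holds them by their integrins. IL7 feeds early lymphocytes, angiopoietin 1 acts on the receptor TEK, and FOXC1, EBF1 and EBF3 keep CAR cells in their niche-forming state.

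Reads on genes numbered 22936251 to 25648769 in the young libraries, 24965971 to 29559194 in the old libraries and 26018046 to 29155223 in the rejuvenated old libraries. The 12 stromal markers summed to 314164 to 340485 normalized counts in young libraries, 243901 to 260587 in old libraries and 189554 to 222454 in rejuvenated old libraries, with only Thy1 at 3 reads or fewer in every old library. Col1a1 and Col1a2 made up most of these sums. Of the 12, 8 were called higher and 4 lower in young than in old MSCs, beside 41.6% and 44.1% of all genes tested. Nt5e averaged 295 in young and 15.9 in old MSCs, and Eng 163 and 7340. Markers of macrophages and other blood cells separated the ages. Their 12 genes summed to 930 to 1047 in young libraries, 15906 to 19907 in old libraries and 15941 to 19490 in rejuvenated old libraries. All 12 were called lower in young than in old MSCs, where 85.7% of all genes tested were called and 44.1% were lower, and Ptprc and Adgre1 had 0 reads in every young library. Between rejuvenated old and old MSCs, 1 of the 12 was called higher (Itgam), 1 lower (Cd68) and 10 were not called, beside 41.6% of all genes called.

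Markers of other stromal fates and of vessels also moved. Of all genes tested, 41.6% were called higher and 44.1% lower in young than in old MSCs. For rejuvenated old against old MSCs these shares were 21% and 20.6%. All 6 osteoblast markers were lower in young than in old MSCs (median log2 fold change -4.73). In rejuvenated old against old MSCs, 3 of them were lower, namely Ibsp (-2.22), Dmp1 (-1.92) and Bglap (-1.46), and Alpl was higher (0.15). Their summed level (354 to 464 in young libraries, 2089 to 2352 in old libraries and 2146 to 2400 in rejuvenated old libraries) was mostly Alpl. All 6 tested adipocyte markers were lower in young MSCs (median -4.85), and after co-culture 4 were higher and Plin1 was lower. Lpl made up most of their sum, which was 16838 to 19370, 43193 to 45589 and 47587 to 60629. Adipoq averaged 1159 in old and 760 in rejuvenated old MSCs and was not called (adjusted p = 0.0816, limma). Its libraries did not overlap between these groups (1079 to 1246 and 561 to 922). The error of that test is that of all 18 libraries, young ones with 0 to 3 reads included. Of 3 tested endothelial markers, Kdr was higher in young MSCs (85.7 on average, 9.12 in old and 4.32 in rejuvenated old MSCs), and Vwf (51.8, 127 and 150) and Egfl7 were lower. Rejuvenated old MSCs had less Kdr than old MSCs as well (adjusted p = 0.02, limma). Endothelial markers under the filter are given by their means, in the group order used for Vwf. Pecam1 (17.0, 6.56 and 5.62) and Cdh5 (1.54, 0 and 0.310) were, like Kdr, highest in young MSCs. Emcn (0.372, 1.29 and 0.485) was highest in old MSCs, and Sox17 had no reads in any library. Cdh5 and Emcn had at most 4 reads per library. The endothelial sum lay between 256 and 370 in all 18 libraries. B lineage markers summed to between 8.71 and 26.9, and the 1 tested, Vpreb1, averaged 6.33 in young MSCs, 14.1 in old MSCs and 11 in rejuvenated old MSCs and was called lower in young than in old MSCs. The part of these other cell types in the differences described here was not tested. In bulk RNA, fewer cells of a type and less RNA per cell cannot be told apart.

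All 10 niche factors differed between young and old cultures, as most genes tested did, and 9 of the 10 were lower in the young cultures. All 10 were called between young and old MSCs at an adjusted p under 0.05 (limma with Benjamini-Hochberg adjustment), where 85.7% of all 14353 genes tested were called. Ackr3 was the 1 gene higher in young MSCs, and the other 9 were lower, against 41.6% and 44.1% of all genes tested. The values of young and old libraries did not overlap for any of the 10, where 73.9% of all genes tested did not, 35.7% higher and 38.2% lower in young MSCs. Over the 10, the log2 fold change of young against old MSCs had a median of -3.14, and over all genes tested one of -0.02.

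Between rejuvenated old and old MSCs, 8 of the 10 differed, by far less than between young and old MSCs. Of these, 5 were called higher (Cxcl12, Ackr3, Kitl, Foxc1 and Ebf3) and 3 lower (Angpt1, Vcam1 and Lepr), while Il7 and Ebf1 were not called. Of all genes tested, 41.6% were called in this comparison, 21% higher and 20.6% lower. The libraries of both groups were separate for 4 genes higher in rejuvenated old MSCs (Cxcl12, Kitl, Foxc1 and Ebf3) and for 1 lower (Vcam1), beside 10.4% and 11.6% of all genes and 22% in either direction. The log2 fold changes of the 10 had a median of 0.15, and that of all genes tested was 0.01. The comparisons of young with old and of rejuvenated old with old MSCs share the 6 old libraries. Against young MSCs, 9 of the 10 were higher and Ackr3 was lower in rejuvenated old MSCs, where 85.6% of all genes were called, 44.1% higher and 41.5% lower. No member's libraries overlapped between these groups, and 70.5% of all genes did not, 36.5% higher and 34% lower.

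**Figure D1:**
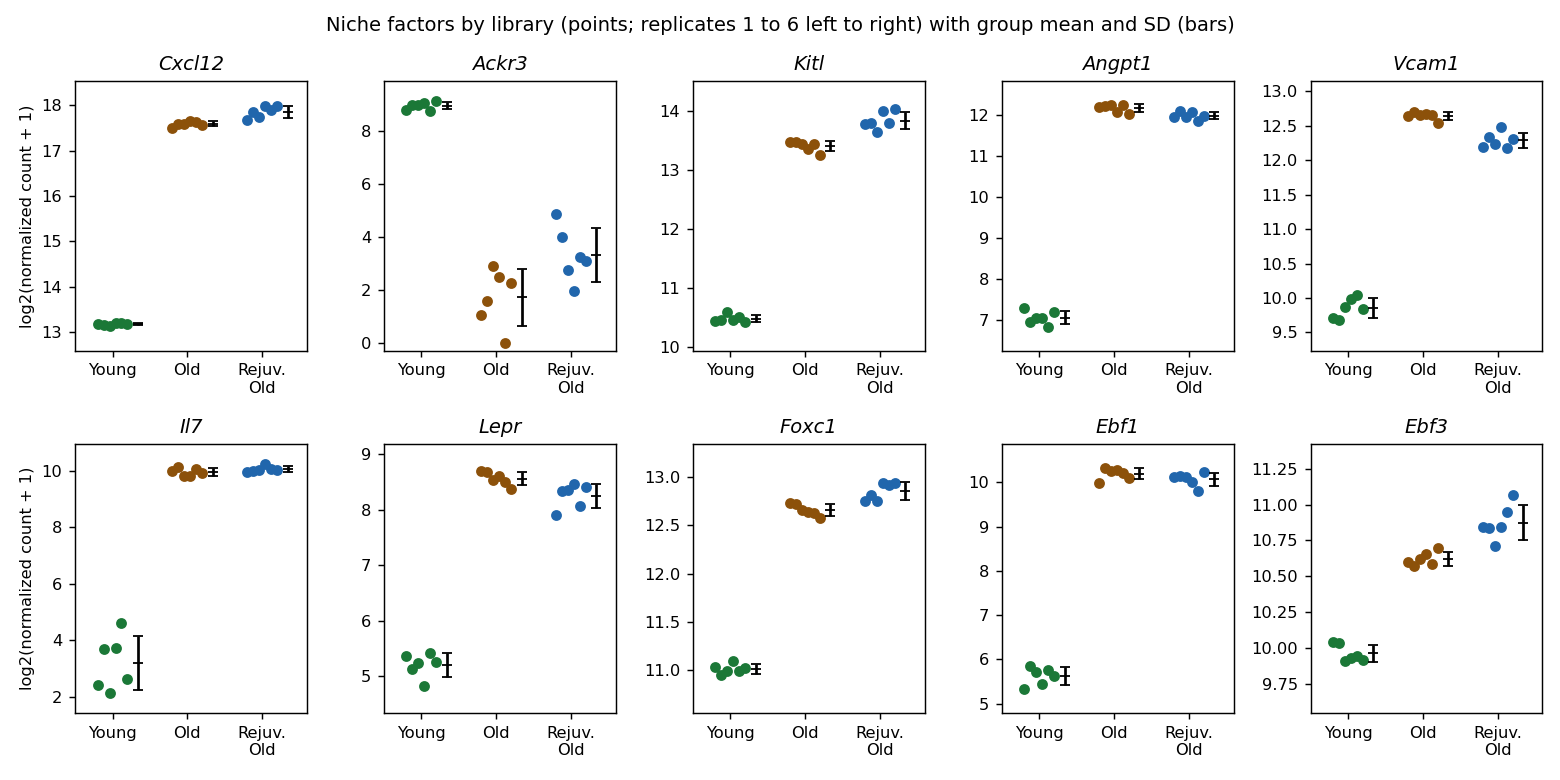
Log2 of the normalized count plus 1 for the 10 niche factors, with a point for each of the 18 libraries, grouped as young, old and rejuvenated old MSCs, and a black bar for each group's mean and SD. The axes differ between panels. The young libraries lie apart from the other 12 in every panel, above them for Ackr3 alone.

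Cxcl12 (gene 20315, chr6:117168535-117181368, plus strand, GRCm38.p6) encodes the chemokine that names the CAR cell. In young MSCs it had a lowest value of 8970 normalized counts, a median of 9215 and a highest of 9438. The corresponding values were 185514, 197597 and 207265 in old MSCs, and 209167, 240606 and 260803 in rejuvenated old MSCs. The 3 groups formed 3 separate bands, with the young libraries far below the rest. Group means (± SD, n = 6) were 9227 ± 166 for young, 197374 ± 7680 for old and 238458 ± 20791 for rejuvenated old MSCs. Old MSCs thus had 21.4 times the young mean. On the log2 scale young MSCs were at -4.42 ± 0.05 (SE) against old MSCs (adjusted p = 8.53e-27, limma). Cxcl12 rose further in rejuvenated old MSCs, to 1.21 times the old mean, a log2 fold change of 0.27 ± 0.05 (adjusted p = 1.11e-04, limma). This moved it away from the young level rather than toward it, and rejuvenated old MSCs were 4.69 above young MSCs on the log2 scale. These are RNA levels. In the paper's bioreactor tubes, release of SDF1, the protein of Cxcl12, did not differ significantly between young and old MSCs. Rejuvenated old MSCs released more of it there than old MSCs paired with other old MSCs.

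Cxcl12 took 0.0350% to 0.0370% of all reads on genes in young libraries, 0.686% to 0.771% in old libraries and 0.781% to 0.966% in rejuvenated old libraries. By normalized count it ranked 3 in each of the 12 old and rejuvenated old libraries and between 378 and 415 in the young libraries. Because it held the same rank in all 12, quantile normalization, which replaces values by ranks, put rejuvenated old and old MSCs at a difference of 0 by construction.

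**Figure D2:**
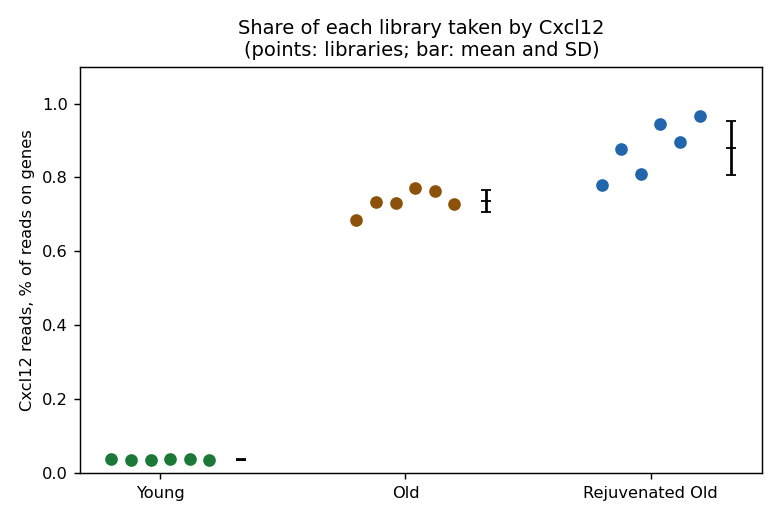
Share of all reads on genes taken by Cxcl12, in percent, with a point for each of the 18 libraries and a black bar for each group's mean and SD. The young libraries lie at 0.0350% to 0.0370%, and the rejuvenated old libraries (0.781% to 0.966%) all lie above the old ones (0.686% to 0.771%).

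Ackr3 (gene 12778, chr1:90203980-90215724, plus strand) encodes the atypical receptor that binds CXCL12 and removes it from the surroundings. Its values in young MSCs were 449, 505, 502, 532, 436 and 561 normalized counts in replicates 1 to 6. In old MSCs they were 1.08, 1.97, 6.46, 4.54, 0 and 3.85, and in rejuvenated old MSCs 27.8, 15.1, 5.71, 2.90, 8.38 and 7.55. The young libraries stood far above all others, and the rejuvenated old libraries overlapped the old ones. Summed over 6 libraries, Ackr3 had 2849 reads in young MSCs, 18 in old MSCs and 69 in rejuvenated old MSCs. Young MSCs had 166 times the normalized level of old MSCs, with a 95% interval of 105 to 281 that covers counting error only. The fitted log2 fold change was 7.24 ± 0.42 (SE, adjusted p = 1.84e-13, limma). Ackr3 also rose in rejuvenated old MSCs, by 3.69 times in summed reads (2.17 to 6.58) and by 1.60 ± 0.42 on the log2 scale (adjusted p = 0.00414, limma). Its fitted change lay between 0.64 and 1.90 over the alternative settings and was lowest with a pseudocount of 10. Rejuvenated old replicate 1 held the highest value, and without it the fitted change was 1.30 (adjusted p = 0.0110, limma). The same library stood apart from its group for Thy1 (21.6, the others at most 0.951) and Foxf1 (12.4, the others at most 1.93), genes that were also high in young and near 0 in old MSCs. Their part in the rise of Ackr3 was not tested. At 11.2 ± 9.07 normalized counts (SD, n = 6), the rejuvenated old level remained far below the young level of 498 ± 47.9.

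Ligand and scavenging receptor of this axis thus lay in opposite directions between young and old MSCs. The bases before their start sites in the RefSeq annotation of GRCm38.p6 are shown for that reason, 250 for each gene and 5′ to 3′ on the gene's strand, from chr6:117168285-117168534 for Cxcl12 and chr1:90203730-90203979 for Ackr3. Capitals mark 6 motifs searched on both strands. One is the GC box, GGGCGG, and another the TATA box, TATAAA. The core bound by hypoxia-inducible factors was searched in a first form, ACGTG, and in a second form, GCGTG. The motif of forkhead factors was GTAAACA, and the palindrome of EBF factors was searched as well.
Cxcl12: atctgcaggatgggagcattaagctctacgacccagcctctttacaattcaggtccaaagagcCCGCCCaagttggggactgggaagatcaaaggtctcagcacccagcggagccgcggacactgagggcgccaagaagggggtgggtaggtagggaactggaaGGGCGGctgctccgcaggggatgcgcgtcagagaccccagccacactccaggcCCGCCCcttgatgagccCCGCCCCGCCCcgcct
Ackr3: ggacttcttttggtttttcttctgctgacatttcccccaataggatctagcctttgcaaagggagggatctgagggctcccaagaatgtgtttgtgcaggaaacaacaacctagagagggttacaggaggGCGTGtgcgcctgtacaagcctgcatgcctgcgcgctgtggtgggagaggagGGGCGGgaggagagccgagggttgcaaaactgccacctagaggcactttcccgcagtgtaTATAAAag
The Cxcl12 window held the GC box letters at 5 places, starting 187, 86, 33, 16 and 11 bases before the start, those at 16 and 11 sharing a base, and none of the other motifs. The Ackr3 window held the second hypoxia form at 120, the GC box at 68 and the TATA box at 8 bases before the start. Of 32851 mouse promoter windows of 300 bases (these 250 and the first 50 transcribed bases), 35.7% held the GC box letters, 32.4% the second and 19.6% the first hypoxia form, 13.6% the TATA box, 3.65% the forkhead motif and 0.904% the EBF palindrome. These matches describe the letters and not bound sites.

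Kitl (gene 17311, chr10:100015615-100100416, plus strand) encodes KIT ligand, or stem cell factor. It ran from 1370 to 1531 normalized counts in young MSCs (median 1397), from 9770 to 11353 in old MSCs (median 11016) and from 12726 to 16623 in rejuvenated old MSCs (median 14142). The 3 groups did not overlap, and their order was that of Cxcl12. Young MSCs were at -2.93 ± 0.05 against old MSCs on the log2 scale (adjusted p = 4.44e-23, limma), old MSCs holding 7.61 times the young mean. Rejuvenated old MSCs had 1.35 times the old mean, a rise of 0.43 ± 0.05 (adjusted p = 8.59e-07, limma).

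Angpt1 (gene 11600, chr15:42424667-42676977, minus strand) encodes angiopoietin 1, the agonist of TEK. It ran from 112 to 155 normalized counts in young MSCs (median 131), from 4203 to 4857 in old MSCs (median 4748) and from 3684 to 4413 in rejuvenated old MSCs (median 4006). Young libraries stood apart, and rejuvenated old libraries overlapped the lower old ones. The old mean was 34.8 times the young mean (log2 fold change of young against old -5.12 ± 0.06, adjusted p = 5.10e-26, limma). In rejuvenated old MSCs Angpt1 fell by 0.19 ± 0.06 on the log2 scale (adjusted p = 0.0204, limma). Without replicate 5 of the rejuvenated old MSCs the call was lost, with a log2 fold change of -0.16 and an adjusted p of 0.0547.

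Il7 (gene 16196, chr3:7572028-7613760, minus strand) encodes interleukin 7. It was nearly silent in young MSCs, with 3 to 22 reads per library and values from 3.35 to 23.4 normalized counts (median 8.55). In old MSCs it ran from 889 to 1122 (median 999) and in rejuvenated old MSCs from 1001 to 1216 (median 1047). The young libraries lay far below the rest, and the other two groups overlapped. In summed reads, the old level was 97.9 times the young level (95% counting interval 75.6 to 129). The log2 fold change of young against old MSCs was -6.76 ± 0.27 (adjusted p = 1.79e-16, limma). Rejuvenated old MSCs differed from old MSCs by 0.10 ± 0.27 (adjusted p = 0.794, limma), where the error is that of all 18 libraries, sparse young ones included. Fitted on the 12 old and rejuvenated old libraries alone, the adjusted p was 0.193.

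Vcam1 (gene 22329, chr3:116110020-116129688, minus strand) encodes the adhesion molecule that binds integrins on blood cells. It ran from 822 to 1050 normalized counts in young MSCs (median 921), from 5951 to 6643 in old MSCs (median 6436) and from 4637 to 5737 in rejuvenated old MSCs (median 4931). The 3 groups did not overlap, with rejuvenated old MSCs between young and old. The old mean was 6.91 times the young mean (log2 fold change of young against old -2.79 ± 0.06, adjusted p = 3.71e-22, limma). In rejuvenated old MSCs Vcam1 fell by 0.36 ± 0.06 on the log2 scale, to 0.782 times the old mean (adjusted p = 2.73e-05, limma).

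Lepr (gene 16847, chr4:101717137-101815352, plus strand) encodes the leptin receptor, by which niche stromal cells are often traced. It ran from 27.3 to 41.6 normalized counts in young MSCs (median 37.0), from 330 to 414 in old MSCs (median 379) and from 239 to 351 in rejuvenated old MSCs (median 325). Young libraries stood apart, and the rejuvenated old libraries overlapped the old ones. The old mean was 10.5 times the young mean (log2 fold change of young against old -3.36 ± 0.11, adjusted p = 1.45e-18, limma). In rejuvenated old MSCs Lepr fell by 0.31 ± 0.11 on the log2 scale (adjusted p = 0.0234, limma). That call was lost without replicate 1 (adjusted p = 0.0538, limma) or replicate 2 (adjusted p = 0.0521, limma) of the old MSCs. It was also lost without replicate 1 (adjusted p = 0.0665, limma) or replicate 5 (adjusted p = 0.0586, limma) of the rejuvenated old MSCs.

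The 3 transcription factors differed in the size of their age difference. Foxc1 (gene 17300, chr13:31806646-31810635, plus strand) encodes the forkhead factor needed to form CAR cells. It ran from 1983 to 2185 normalized counts in young MSCs (median 2059), from 6086 to 6806 in old MSCs (median 6409) and from 6863 to 7854 in rejuvenated old MSCs (median 7458). The 3 groups did not overlap. Young MSCs were at -1.64 ± 0.04 against old MSCs (adjusted p = 6.27e-21, limma), and Foxc1 rose by 0.19 ± 0.04 in rejuvenated old MSCs (adjusted p = 3.96e-04, limma).

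Ebf1 (gene 13591, chr11:44618100-45008096, plus strand) is best known as a B cell factor and is also active in marrow stroma. It ran from 39.2 to 56.8 normalized counts in young MSCs (median 49.9), from 1012 to 1279 in old MSCs (median 1211) and from 898 to 1198 in rejuvenated old MSCs (median 1111). Young libraries stood apart, while those of old and rejuvenated old MSCs overlapped. The old mean was 24.2 times the young mean (log2 fold change of young against old -4.57 ± 0.09, adjusted p = 7.90e-23, limma). Rejuvenated old MSCs were at -0.13 ± 0.09 against old MSCs (adjusted p = 0.257, limma). Of the B lineage markers, Vpreb1 was also lower in young than in old MSCs (adjusted p = 2.83e-04, limma), at the low levels given above, and Cd79b and Ighm had 3 reads or fewer in every library.

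Ebf3 (gene 13593, chr7:137193671-137322805, minus strand) encodes the related factor that keeps CAR cells from turning to bone. It ran from 960 to 1053 normalized counts in young MSCs (median 981), from 1519 to 1663 in old MSCs (median 1562) and from 1675 to 2141 in rejuvenated old MSCs (median 1836). The 3 groups did not overlap, and their order was that of Cxcl12, Kitl and Foxc1. Ebf3 had the smallest age difference of the 10, with young MSCs at -0.66 ± 0.05 against old MSCs (adjusted p = 5.29e-12, limma). It rose by 0.25 ± 0.05 in rejuvenated old MSCs (adjusted p = 1.32e-04, limma).

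Exons of 4 members overlap an antisense gene in GENCODE vM21, and the strand setting used in counting was not stated in the sources used here. Angpt1 shares 737 of 5205 exon bases with Gm17473, Ebf3 355 of 9227 with Gm45278, Il7 105 of 5664 with Gm16685 and Vcam1 61 of 8870 with Gm43109. Reads from these stretches may belong to either gene.

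**Figure D3:**
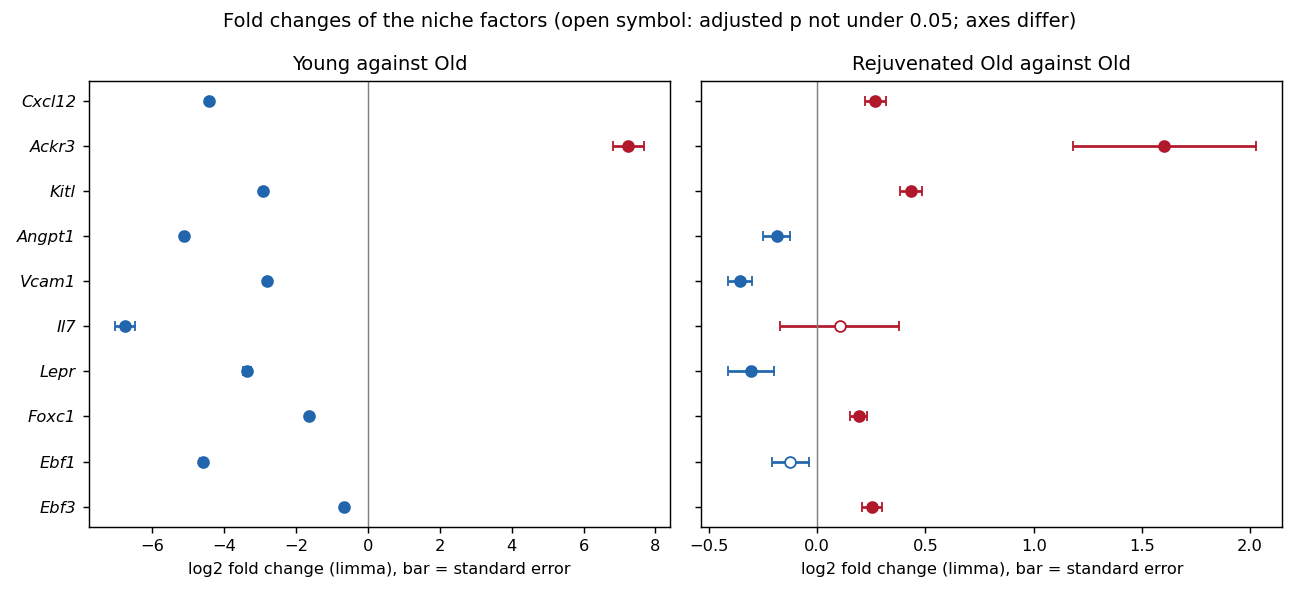
Log2 fold changes of the 10 niche factors from limma, in young against old MSCs (left) and rejuvenated old against old MSCs (right, on a finer axis), with standard errors as bars and open symbols where the adjusted p was not under 0.05. The left panel runs from -6.76 (Il7) to 7.24 (Ackr3), and apart from Ackr3 (1.60) the right panel stays between -0.36 (Vcam1) and 0.43 (Kitl).

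The age difference was not even along the genome, so each member was also set beside its chromosome. The median log2 fold change of young against old MSCs ran from -0.75 to 0.61 over the autosomes and X, and from -0.04 to 0.06 for rejuvenated old against old MSCs. Ebf3 lies on chromosome 7, whose genes had a median of 0.61 in young against old MSCs. Relative to that median Ebf3 was at -1.27, beside -0.66 without it. Ackr3 lies on chromosome 1, whose median was -0.69, and was 7.94 above it. Relative to their chromosomes Cxcl12 was at -4.50, Kitl at -2.73, Angpt1 at -5.31 and Foxc1 at -1.34. No member changed direction in any comparison.

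**Figure D4:**
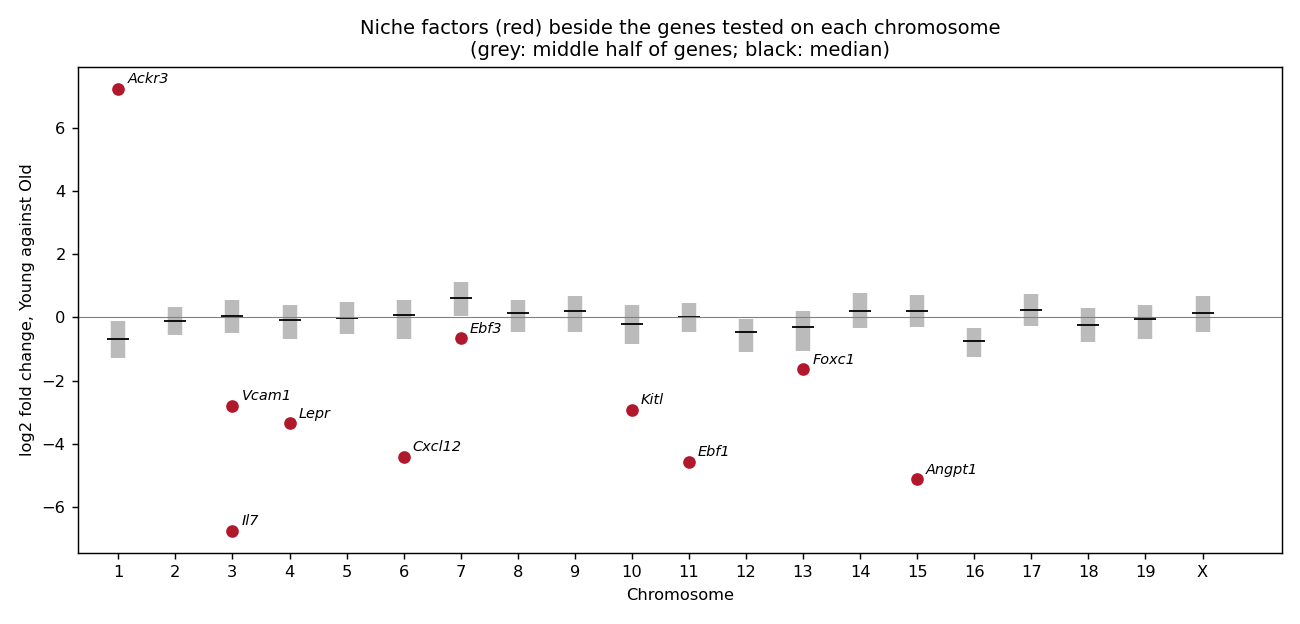
Log2 fold change of young against old MSCs for the 10 niche factors (red points) beside the genes tested on each chromosome, with the interquartile range as a grey bar and the median as a black line. Chromosome medians run from -0.75 to 0.61, and each niche factor lies outside the grey bar of its chromosome.

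Levels of different genes were compared per kilobase of exon (GENCODE vM21). Cxcl12 was the most abundant of the 10 in every group, at 1129 ± 20.4 normalized counts per kb (SD, n = 6) in young MSCs, 24141 ± 939 in old MSCs and 29166 ± 2543 in rejuvenated old MSCs. Among 25455 genes with a length it ranked 1209 in young MSCs and 14 in both other groups. The order below it changed with age. In old MSCs Kitl (1830 per kb), Foxc1 (1106), Angpt1 (888) and Vcam1 (722) followed, then Il7 (175) and Ebf3 (171), whose ranges overlapped, then Ebf1 (120), Lepr (53.7) and Ackr3 (0.891). Rejuvenated old MSCs kept that order, except that Ebf3 (204) stood above Il7 (188), again with overlapping ranges. In young MSCs Foxc1 (354 per kb) stood above Kitl (241), and Ackr3 (149) was the fourth. Ebf3 (108) and Vcam1 (105) followed with overlapping ranges. Angpt1 (25.5) came next, and the ranges of Lepr (5.13), Ebf1 (4.98) and Il7 (1.78) overlapped from one to the next.

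Profiles over the 18 libraries were compared as the root mean square (RMS) difference of log2 values, each centred on its own mean, among 13196 named genes. The genes nearest to Cxcl12 were Ces1g (0.0731), Dpep1 (0.117) and Ehd3 (0.125). Ces1g averaged 121 normalized counts in young MSCs, 2559 in old MSCs and 2977 in rejuvenated old MSCs. Among the members themselves, the nearest pair was Cxcl12 and Ebf1 (0.228). The nearest gene was Islr for Kitl (0.0917), Mmp2 for Angpt1 (0.152), Gpm6b for Vcam1 (0.0906) and Itga9 for Il7 (0.396). It was Dcxr for Lepr (0.174), Fam20a for Foxc1 (0.0771), Mid2 for Ebf1 (0.137), Wipi1 for Ebf3 (0.0574) and Sema3f for Ackr3 (0.641).

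The partners of each member were taken from lists of its pathway, and all values for them are group means of normalized counts. The shares of all genes called are 41.6% higher and 44.1% lower for young against old MSCs, and 21% higher and 20.6% lower for rejuvenated old against old MSCs. Of 8 tested companions of CXCL12, 1 was higher and 6 lower in young than in old MSCs, and 4 rose and 3 fell in rejuvenated old MSCs (median log2 fold changes -1.90 and 0.04, beside 85.7% and 41.6% of all genes called). Cxcr4, the signalling receptor of CXCL12, was scarce at 10.3 in young MSCs, 22.5 in old MSCs and 20.3 in rejuvenated old MSCs. Ackr4, another scavenging chemokine receptor, rose from 273 ± 30.9 in old to 529 ± 56.3 in rejuvenated old MSCs (log2 fold change 0.95 ± 0.09, adjusted p = 1.46e-08, limma). Adrb3, the adrenergic receptor through which sympathetic nerves lower CXCL12, rose from 84.3 ± 11.2 to 302 ± 63.8 (1.81 ± 0.36, adjusted p = 3.60e-04, limma). Gja1, which encodes a gap junction protein, was 8480 ± 539 in young and 24154 ± 1103 in old MSCs and fell to 14425 ± 1678 in rejuvenated old MSCs (-0.75 ± 0.06, adjusted p = 2.92e-09, limma). Mme, a membrane peptidase, was at 15.9 in young MSCs, 1893 in old MSCs and 1509 in rejuvenated old MSCs.

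Kit, the receptor of KIT ligand, had 0 reads in every young library and means of 8.74 in old and 5.70 in rejuvenated old MSCs. Tek, the receptor of angiopoietin 1, was at 16.4, 10.8 and 8.94 in young, old and rejuvenated old MSCs. Lep, which encodes leptin, had no reads in any library. Itga4, a chain of the main VCAM1 receptor, was at 2.62, 36.2 and 39.0, and Il7r, a chain of the IL7 receptor, at 0.372, 24.8 and 17.0. Il2rg, the other chain of the IL7 receptor, was at 4.88, 110 and 105. These 3 are also made by blood cells, whose markers were lower in the same young libraries. Itga9, another integrin chain that can bind VCAM1, was at 2.43, 280 and 291. Itgb1, the widely expressed integrin partner chain, was abundant in all groups, at 27811, 29449 and 28375.

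Of 5 tested companions of KIT ligand, 3 were higher and 2 lower in young than in old MSCs, and 0 rose and 3 fell in rejuvenated old MSCs (medians 0.17 and -0.20, beside 85.7% and 41.6% of all genes called). The 3 that fell were Adam17, Adam8 and Mmp9, proteases of which some release ligands from the cell surface, and Adam17 went from 2855 ± 79.5 to 2480 ± 157 (-0.20 ± 0.04, adjusted p = 1.84e-04, limma). Of 4 tested companions of angiopoietin 1, 2 were higher and 2 lower in young MSCs, and 1 rose and 1 fell in rejuvenated old MSCs (medians -1.42 and -0.14, beside 85.7% and 41.6% of all genes called). Angpt2, which can oppose angiopoietin 1 on TEK, was 21.1 ± 5.21 in young and 806 ± 39.2 in old MSCs and rose to 1660 ± 351 in rejuvenated old MSCs (1.01 ± 0.14, adjusted p = 5.44e-06, limma). Angpt1 fell in the same libraries.

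Of 8 tested companions of VCAM1, 2 were higher and 5 lower in young MSCs, and 1 rose and 1 fell in rejuvenated old MSCs (medians -0.31 and -0.05, beside 85.7% and 41.6% of all genes called). Adam10, a shedding protease, fell from 998 ± 77.6 in old to 564 ± 115 in rejuvenated old MSCs (-0.85 ± 0.11, adjusted p = 1.57e-06, limma). All 9 lymphoid cytokine genes were tested, with 4 higher and 5 lower in young MSCs and 2 that rose in rejuvenated old MSCs (medians -1.13 and 0.06, beside 85.7% and 41.6% of all genes called). These were Tnfsf11, the osteoclast factor RANKL (66.1 ± 9.28 to 182 ± 34.8), and Tslp, an IL7-like cytokine (28.3 ± 4.39 to 39.6 ± 4.62). Of 6 tested genes of leptin signalling, 3 were higher and 3 lower in young MSCs, and 2 rose and 2 fell in rejuvenated old MSCs (medians -0.15 and -0.03, beside 85.7% and 41.6% of all genes called). The kinase Jak2 went from 3464 ± 197 to 4153 ± 87.4 (0.26 ± 0.04, adjusted p = 1.34e-05, limma).

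Of 11 tested transcription factors of the stromal niche, 3 were higher and 8 lower in young than in old MSCs, and 3 rose and 3 fell in rejuvenated old MSCs (medians -0.70 and 0.02, beside 85.7% and 41.6% of all genes called). The EBF family was split by age. Ebf2 was 4.72 in young and 160 in old MSCs, whereas Ebf4 was 431 in young and 40.4 in old MSCs. In rejuvenated old MSCs Ebf4 rose to 66.3 ± 11.6 (0.69 ± 0.11, adjusted p = 1.95e-05, limma) and Ebf2 fell to 114 ± 20.2 (-0.50 ± 0.18, adjusted p = 0.0279, limma). Foxc2, the paralog of Foxc1, had 200 ± 16.8 in young MSCs, 832 ± 40.2 in old MSCs and 732 ± 39.0 in rejuvenated old MSCs, and its fall after co-culture (-0.19 ± 0.06, adjusted p = 0.0104, limma) was opposite in sign to the rise of Foxc1. Runx1 rose from 2763 ± 60.4 to 3645 ± 275 (0.40 ± 0.04, adjusted p = 3.48e-08, limma).

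**Figure D5:**
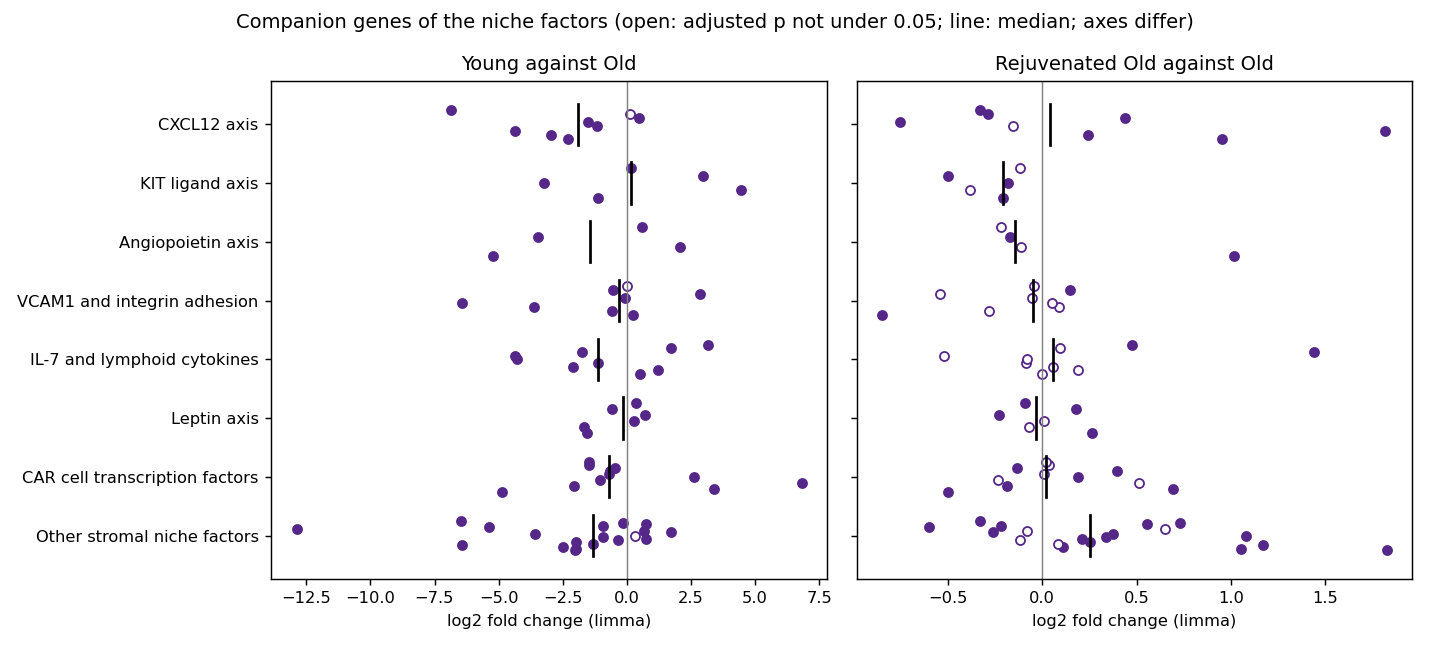
Log2 fold changes of the tested companion genes of the niche factors from limma, by list, in young against old MSCs (left) and rejuvenated old against old MSCs (right, on a finer axis), with open points where the adjusted p was not under 0.05 and a black line at each list's median. In the left panel the median of the KIT ligand list lies at 0.17 and the others below 0, and in the right panel all 8 lie between -0.20 and 0.25.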

How the data were processed

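RNA was sequenced from 18 cultures of mouse bone marrow MSCs, 6 per group. According to the methods, reads were aligned to mm10 with HISAT2, assembled and counted with StringTie and featureCounts, and normalized with DESeq2 on Galaxy. Versions, gene annotation and strand setting are not given in the sources used here. What the authors deposited is a signal for each gene, its read count over the size factor of the library. Since each library's values are whole multiples of its smallest step, within 0.001 of a read, whole reads were recovered.

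Groups and replicate numbers came from the sample titles. The members and the gene lists were chosen with earlier results of these data known. The test was that of limma 3.58.1 on log2(value + 1) in R 4.3.3, with a mean for each of 3 groups in 1 fit of all 18 libraries and a prior variance following the mean. A fold change is the difference of 2 group means on this log2 scale and comes out too small for low genes. The test ran on 14353 genes averaging 10 or more, with Benjamini-Hochberg adjustment over all of them and calls at an adjusted p under 0.05. Genes under the filter were not called. Only some of them were named, and these were given by their values. Intervals of read ratios are exact binomial and cover counting error only. Gene positions came from RefSeq (25275 of 27179 genes matched by gene number), exon lengths and overlaps from GENCODE vM21, and promoter windows from RefSeq, all of GRCm38 (mm10). The promoter table gave windows for 7 members, and Angpt1, Vcam1 and Il7 have none in it.

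All 10 members were named. From each list of companions, the text took genes with the largest called changes (up to 2 in each direction and comparison) and receptors or ligands of a member. Bglap, Lpl, Cd79b, Ighm, Ptprc, Adgre1, Pecam1, Cdh5, Emcn and Sox17 fall outside this rule and were named after their values were seen. Alternatives were pseudocounts of 0.5 and 10, no filter or a mean of at least 50, scaling to the same total, 75th percentile or quantiles, fits restricted to the 2 groups compared, a prior variance not tied to the mean, the replicate number as a block, DESeq2 1.42.0 and edgeR 4.0.16 (quasi-likelihood, TMM) on the recovered reads, an adjusted p under 0.01, differences relative to the chromosome's median, and leaving out each library in turn. The tests were tried on simulated counts. Tables were made with pandas 2.3.3 and scipy 1.17.1 and plots with matplotlib 3.10.9, under Python 3.11.15.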

Additional observations from a re-analysis of the deposited data

Results flagged for a closer look

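In a group of 6 libraries, the highest or lowest was marked where its gap to the next, divided by the group's range, exceeded Dixon's 95% critical value. Chance marks about 1 group in 20. Of the 30 groups of members, 2 were marked. Vcam1 in old replicate 6 was lowest at 5951 normalized counts, with the other old libraries at 6424 to 6643, and Il7 in rejuvenated old replicate 4 was highest at 1216, with the others at 1001 to 1072. The call for Vcam1 and the absence of one for Il7 between rejuvenated old and old MSCs held without either library.

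Of the 195 groups of companion and marker genes, 18 were marked. In young MSCs, replicate 6 was lowest for Angpt4 (1171) and highest for Sfrp1 (46.3), C1qc (3.09), C1qa (1.03) and Cxcl14 (1.03), replicate 3 was highest for Il7r (2.23) and Itgam (2.23), and replicate 2 was lowest for Pdgfra (13667). In old MSCs, the marked values were Itga9 in replicate 2 (235, lowest), Kdr in replicate 2 (19.7, highest), Spp1 in replicate 1 (119241, highest), C1qc in replicate 4 (1912, highest) and Vpreb1 in replicate 3 (21.5, highest). In rejuvenated old MSCs they were Mme in replicate 5 (1235, lowest), Foxf1 in replicate 1 (12.4, highest), Thy1 in replicate 1 (21.6, highest), Eng in replicate 4 (8158, highest) and Kdr in replicate 4 (9.66, highest).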

How the results depend on the processing

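All 10 members kept their direction and call between young and old MSCs, and between rejuvenated old and young MSCs, under each alternative that gave a test. Leaving out each library in turn put Cxcl12 at -4.44 to -4.40 in young against old, 0.24 to 0.31 in rejuvenated old against old, and 4.66 to 4.72 in rejuvenated old against young MSCs. In the same fits 10 to 10, 6 to 8 and 10 to 10 members were called. Relative to its chromosome's median, Cxcl12 was at -4.50 in young against old MSCs. Quantile normalization set its difference between rejuvenated old and old MSCs to 0 (adjusted p of 1), and the other alternatives gave up to 0.27. At an adjusted p under 0.01, Angpt1 and Lepr were no longer called between rejuvenated old and old MSCs.

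Replicate numbers did not pair the libraries. Deviations of same-numbered libraries from their group means correlated at -0.12 to 0.06 between young and old and at -0.15 to 0.07 between rejuvenated old and old MSCs, with 0 of 6 pairs over 0.1 in either. With the replicate number as a block, Cxcl12 remained at -4.42, 0.27 and 4.69, and 10, 8 and 10 members were called. Over all genes 12219, 5769 and 12210 were called with the block, beside 12297, 5971 and 12288 without it. A library correlated best with its own number in 1 of 6 cases between rejuvenated old and old MSCs and in 0 of 6 in the other comparisons.

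Depth limits Ackr3 in old MSCs (18 reads in 6 libraries) and Il7 in young MSCs (58 reads), whose ratios carry wide counting intervals.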

Other observations

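Other factors of the stromal niche were measured beside the members. Of 19 tested, 4 were higher and 14 lower in young than in old MSCs (41.6% and 44.1% of all genes; median log2 fold change -1.32, all genes -0.02), and 11 rose and 4 fell in rejuvenated old MSCs (21% and 20.6% of all genes; median 0.25, all genes 0.01). Bmp4, a bone morphogenetic protein, went from 2532 ± 106 normalized counts in old to 9082 ± 1466 in rejuvenated old MSCs (SD, n = 6 each), a log2 fold change of 1.83 ± 0.08 (SE, adjusted p = 3.30e-14, limma). Young MSCs stood below both at 625 ± 44.2. Cxcl14, another chemokine, had at most 1 read in any young library and went from 95.9 ± 14.3 in old to 219 ± 43.5 in rejuvenated old MSCs (1.17 ± 0.19, adjusted p = 3.05e-05, limma).

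Spp1, osteopontin, which restrains the number of blood stem cells, was 2694 ± 106 in young and 112981 ± 3243 in old MSCs. It fell to 75480 ± 12242 in rejuvenated old MSCs (-0.60 ± 0.07, adjusted p = 5.96e-07, limma). Wnt5a fell from 977 ± 43.1 to 780 ± 51.5 (-0.33 ± 0.10, adjusted p = 0.00983, limma) and was 10.2 ± 2.18 in young MSCs. Sfrp1, a secreted Wnt inhibitor, was at 56377 ± 761 in old and 88621 ± 4303 in rejuvenated old MSCs. Its libraries did not overlap between these groups (55480 to 57134 and 83770 to 95079). The difference was not called (0.65 ± 0.38, adjusted p = 0.187, limma), where the error is that of all 18 libraries, sparse young ones included. In young MSCs Sfrp1 was at 46.3 in replicate 6 and at 2.18 to 7.82 in the others. Ptn and Thpo, the genes of pleiotrophin and thrombopoietin, were higher in young MSCs, at 740 ± 62.9 and 128 ± 25.3, than in old MSCs, at 222 ± 25 and 74.9 ± 18.2.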
